A study of Mus musculus with 2 samples.

Results

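Matrix metalloproteinases were followed through the stromal vascular fraction of mouse fat, to find which cells held the transcript of each enzyme under each diet. The 8 genes were taken from a list of names, chosen with earlier results of these data known: Mmp2, Mmp3, Mmp9, Mmp12, Mmp13, Mmp14, Mmp19 and Mmp23. They are 8 of the 27998 genes in the count tables, and 8 of the 23 Mmp genes there. Each symbol stood for 1 gene, and all 8 were detected in both libraries.

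Matrix metalloproteinases are zinc-dependent endopeptidases that cut collagens, elastin, proteoglycans and many secreted or cell-surface proteins. Most are made as inactive proenzymes, are switched on by removal of a propeptide, and are held in check by tissue inhibitors of metalloproteinases (the Timp genes). In fat tissue they take part in the remodelling of the matrix and vessels around adipocytes, and both fibroblast-like progenitors and macrophages can make them.

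The cells came from the epididymal white adipose tissue of wild-type male C57BL/6J mice at 18 weeks of age. One library was made from mice on a normal chow diet (NCD) and 1 from mice fed a high fat diet (HFD) for 12 weeks. Collagenase (type II, 1 mg/ml) had freed the cells of both libraries over 30 min at 37 °C, and they were captured with a droplet-based 3' kit that counts unique molecular identifiers (UMIs). How many animals went into a library is not given in the sources used here. With 1 library per diet there was no replicate and no test, and diet and library cannot be told apart. All intervals below are exact 95% intervals that cover counting error only.

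The NCD table held 7365 barcodes and 33825653 UMIs, with a median of 4230 UMIs per barcode. The HFD table held 6840 barcodes and 18623508 UMIs, with a median of 2020. After filtering and removal of called doublets 7149 NCD and 6444 HFD cells remained, and 64 barcode sequences occurred in both tables. Cells were clustered with every Mmp and Timp gene left out, so that no member helped to form the clusters its level was read in. The named classes, each meaning a profile like that class, included 3276 NCD and 2964 HFD progenitors (fibroblast-like cells that can form adipocytes) and 2279 NCD and 2235 HFD macrophages. No cluster met the naming rule for neutrophils, eosinophils, plasmacytoid dendritic cells or adipocytes.

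Transcripts from other cells, called free RNA here, were far more frequent in the HFD library. The median of 15 stromal marker genes in macrophages stood at 3.22% of their library level in the NCD library (range 1.97 to 12.9) and at 29.6% in the HFD library (26.2 to 42.6). In T cells, which do not make these proteins, the median was 7.84% and 47.2%, and in the 150 HFD mast cells or basophils it was 101.5%. The median of 7 macrophage markers in progenitors was 3.16% and 22.8%. A low level of a gene in a class that should lack it is therefore read below against these markers.

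Mmp3, Mmp12 and Mmp13 lie in a run of 10 Mmp genes on chromosome 9. By GENCODE vM21 on GRCm38, Mmp13 (ENSMUSG00000050578) spans chr9:7272514-7283331, Mmp12 (ENSMUSG00000049723) spans chr9:7344381-7369499 and Mmp3 (ENSMUSG00000043613) spans chr9:7445822-7455975, all on the plus strand. Of the other 7 genes of the run, Mmp1a, Mmp1b and Mmp20 had 0 UMIs in both libraries, and Mmp7, Mmp8, Mmp10 and Mmp27 had between 0 and 41. Mmp12 overlaps Mmp1b, which lies on the opposite strand. The other members are Mmp2 (ENSMUSG00000031740, chr8:92827291-92853420, plus strand), Mmp9 (ENSMUSG00000017737, chr2:164940780-164955850, plus strand), Mmp14 (ENSMUSG00000000957, chr14:54431612-54445364, plus strand), Mmp19 (ENSMUSG00000025355, chr10:128790910-128800824, plus strand) and Mmp23 (ENSMUSG00000029061, chr4:155650655-155653384, minus strand). Mmp19 overlaps Tmem198b on the opposite strand, a gene with 481 NCD and 199 HFD UMIs. Whether the counting used strand is not given in the sources used here.

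The promoters of the 3 members of the run are shown because these neighbours were not all read in the same cells. Mmp3 was read mainly in progenitors, and Mmp13 and the Mmp12 of the HFD library mainly in macrophages. Mmp12 and Mmp3 were both higher over the HFD library, and the ratio of Mmp13 was not called. The sequences are RefSeq's on GRCm38.p6, plus strand, from 100 bases before to 20 bases after the annotated start, with matches to the AP-1 motif TGANTCA and to the TATA motif TATAAA in capitals.
Mmp13, chr9:7272414-7272533: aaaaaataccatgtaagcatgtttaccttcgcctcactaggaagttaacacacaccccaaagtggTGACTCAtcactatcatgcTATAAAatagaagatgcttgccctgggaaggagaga
Mmp12, chr9:7347274-7347393: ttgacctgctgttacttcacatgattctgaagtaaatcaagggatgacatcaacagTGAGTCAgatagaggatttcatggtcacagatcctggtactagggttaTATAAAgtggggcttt
Mmp3, chr9:7445722-7445841: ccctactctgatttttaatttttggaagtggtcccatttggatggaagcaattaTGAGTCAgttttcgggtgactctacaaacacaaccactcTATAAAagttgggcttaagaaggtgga
The AP-1 match began 35 bases before the annotated start of Mmp13, 44 before that of Mmp12 and 46 before that of Mmp3. A TATA match followed it after 12, 41 and 32 bases. The TATA match began 16 bases before the start of Mmp13 and 7 before that of Mmp3, but 4 bases after that of Mmp12. Both strands of windows of 300 bases were searched, and the motifs do not overlap. Of 32851 RefSeq promoter windows of that length, 7.81% held the AP-1 motif, 13.6% the TATA motif and 1.54% both. RefSeq windows were found for 5 of the 8 members, 7 windows in all. Neither motif was found in the windows of Mmp14 and Mmp23, nor in a second Mmp12 window at chr9:7344147-7344446. That second window holds the GENCODE start of Mmp12, and the Mmp12 window shown lies inside the GENCODE span. A match describes letters and is no evidence of binding.

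Summed over all cells of a library, Mmp12 and Mmp3 were higher and Mmp9 was lower in the HFD library, while the other members differed by less than 2-fold. Mmp12 stood at 11.8 counts per 1000000 UMIs (CPM) in the NCD library (381 UMIs) and at 402 CPM in the HFD library (7123 UMIs), a ratio of 34.1 (30.8 to 37.9). Mmp3 stood at 8.59 CPM (278 UMIs) and 144 CPM (2552 UMIs), 16.8-fold higher (14.8 to 19.04). Mmp9 went the other way, from 35.9 CPM (1160 UMIs) to 0.959 CPM (17 UMIs), 37.4-fold lower (23.2 to 64.4). Among the 7 members that reached 10 CPM in a library, 2 were at least 2-fold higher in the HFD library and 1 was at least 2-fold lower. Of all 8163 genes at that level, 3.11% were higher and 4.86% lower by this rule. Such sums cannot tell fewer cells of a type from less RNA per cell.

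The remaining library sums were closer together. Mmp2 was at 124 and 244 CPM, a ratio of 1.97 (1.89 to 2.06) that lay just under 2-fold. Mmp14 was at 48.9 and 76.4 CPM, 1.56-fold higher in the HFD library. Mmp19 was at 37.6 and 52.8 CPM, 1.40-fold higher. Mmp23, at 174 and 148 CPM, was the only 1 of these 4 with the lower value in the HFD library. Mmp13 had 38 NCD and 15 HFD UMIs, under 10 CPM in each library, and its ratio was not called.

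**Figure D1:**
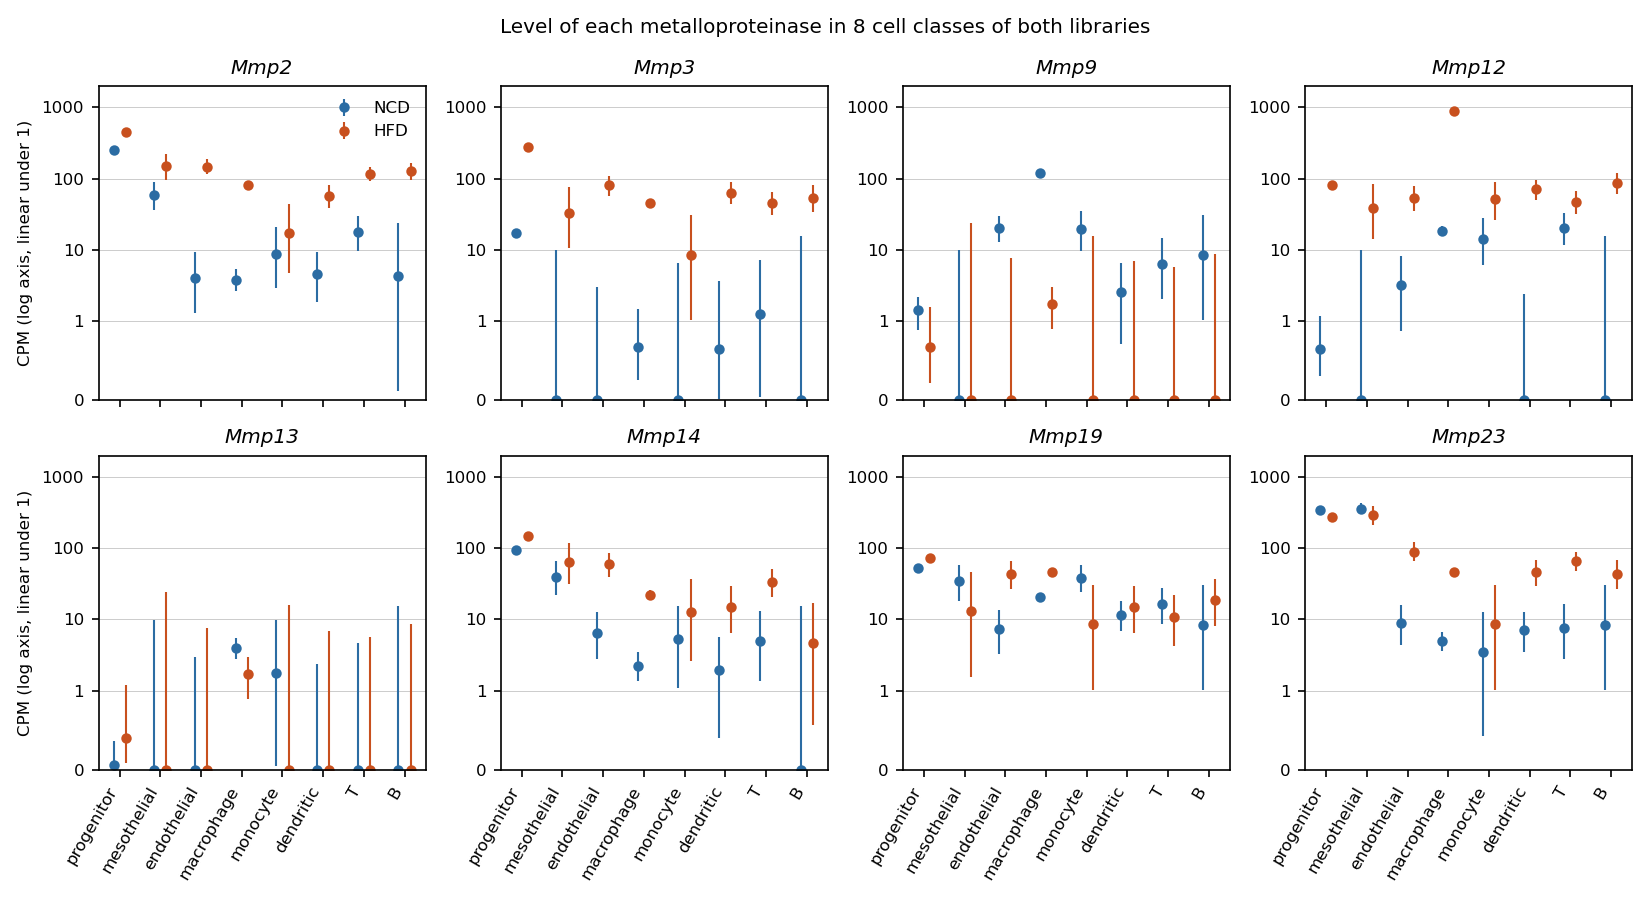
Level of each metalloproteinase in CPM (vertical log axis, linear under 1) in 8 cell classes of the NCD library (blue) and the HFD library (orange), with exact Poisson 95% intervals. Mmp2, Mmp3, Mmp14 and Mmp23 peak in progenitors or mesothelial cells, Mmp9 in NCD macrophages and Mmp12 in HFD macrophages, and the orange points of the stromal genes lie above the blue ones in most other classes.

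In the NCD library the members split into stromal and myeloid enzymes. Stromal here means progenitors, mesothelial and mural cells, which held 50% of all UMIs, and myeloid means macrophages, monocytes, dendritic cells and mast cells or basophils, which held 34.5%. The level of 5 of the 7 members tested was at least 2-fold higher in stromal cells and that of 2 was at least 2-fold higher in myeloid cells. The 2 were Mmp9 and Mmp12, and without 1 macrophage that held 71 of the Mmp12 UMIs only Mmp9 passed, since Mmp12 then lay under 10 CPM. Of 8714 genes, 25.5% were higher in stromal and 14.6% in myeloid cells by this rule. In the HFD library 4 of 6 members tested were higher in stromal cells and 1 in myeloid cells, against 20.7% and 11.8% of 8037 genes.

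Mmp14 encodes a membrane-anchored enzyme that cuts fibrillar collagen and activates the Mmp2 proenzyme at the cell surface. Stromal cells held 96.5% of its 1583 UMIs in the NCD library (95.5 to 97.4) and 82.1% of its 1354 UMIs in the HFD library (79.98 to 84.1). In progenitors it was at 96.1 CPM under NCD against 148 CPM under HFD, a ratio of 1.54 (1.43 to 1.67). The 48 NCD mural cells, at 71.9 CPM (40.3 to 119), and the mesothelial cells, at 39.9 CPM (22.3 to 65.8), also carried it. Its level in NCD stromal cells was 39.0 times that in myeloid cells, against 6.48 times in the HFD library, or 5.29 and 2.70 on the log2 scale. With the library profile subtracted the log2 ratios were 6.75 (NCD) and 9.29 (HFD), in the opposite order. Only 5.86 of 20 NCD and 0 of 156 HFD macrophage UMIs were then left, too few to rank the libraries.

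Mmp2 encodes a gelatinase, which cuts denatured collagen and the type IV collagen of basement membranes. Stromal cells held 97.4% of its UMIs in the NCD library (96.9 to 97.9) and 79.3% in the HFD library (78.1 to 80.5). Progenitors stood at 249 CPM (241 to 257) under NCD and 458 CPM (443 to 474) under HFD, 1.84-fold higher (1.76 to 1.93). A UMI was seen in 35.2% of 3099 NCD progenitors and 54.1% of 1471 HFD progenitors after every cell was thinned to 2000 UMIs. In T cells, taken as a class that should lack it, the shares were 2.01% and 17.7%. Unthinned shares in progenitors were 57.8% and 56.2%, with median depths of 4572 and 1994 UMIs, and thinning left out 177 NCD and 1493 HFD progenitors. Among progenitors with a Mmp2 UMI, 18.1% (15.8 to 20.5) also held a Mmp14 UMI in the NCD library, and 16.0% (14.4 to 17.7) of those without did. The same shares were 26.4% (23.4 to 29.6) and 21.8% (18.7 to 25.1) in the HFD library, so the intervals overlapped in both.

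The lower level of Mmp2 in the progenitors of the NCD library was not even across their kinds. Interstitial progenitors, marked by Pi16, Dpp4 and Sema3c, stood at 112.5 CPM (102 to 124) under NCD and 413 CPM (375 to 454) under HFD, 3.67-fold higher (3.19 to 4.22). They came from separate clusters, since 695 of 701 NCD cells lay in cluster c14.0 and 343 of 399 HFD cells in cluster c22.0. Macrophage markers in c22.0 stood at 23.2% of their library level, and at 2.45% in the NCD cells and 4.12% in the HFD cells of c14.0. NCD progenitors of the F3 kind, marked by F3 and Gdf10, were at 372 CPM, and only 20 HFD cells fell in that group.

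Mmp23 encodes a small membrane-anchored member of the family that is cut free in the secretory pathway. Its UMIs were stromal for 98.0% in the NCD library (97.6 to 98.3) and 80.1% in the HFD library (78.6 to 81.7). Progenitors stood at 345 and 277 CPM, 1.25-fold lower in the HFD library (1.18 to 1.31). Mesothelial cells, which line the fat pad, were at 362 CPM (303.5 to 428) under NCD and 293 CPM (214 to 392) under HFD. Neither library separated progenitors from mesothelial cells beyond these intervals.

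Mmp3 encodes stromelysin-1, which degrades proteoglycans and fibronectin and can activate other metalloproteinase proenzymes. It was a rare transcript of NCD progenitors and was seen in a larger share of HFD progenitors. NCD progenitors held 266 UMIs (17.06 CPM, 15.1 to 19.2) and HFD progenitors 2054 UMIs (277 CPM, 265 to 289), a ratio of 16.2 (14.3 to 18.5). The NCD UMIs came from 53 of 3276 cells, and the 33 cells with the most held 92.1% of them. The HFD UMIs came from 755 of 2964 cells, and the 30 cells with the most held 21.7%. At 2000 UMIs per cell 1.00% of NCD progenitors (0.681 to 1.42) and 22.4% of HFD progenitors (20.3 to 24.7) had a UMI, against 0.671% and 8.46% of T cells. Of 93 HFD endothelial cells at that depth 13.98% (7.66 to 22.7) had one.

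Clusters of progenitors differed widely in Mmp3 within each library. In the NCD library clusters c9.2 and c10.1 were at 44.9 CPM (34.95 to 56.85) and 38.9 CPM (31.4 to 47.7), while the 695 interstitial cells of c14.0 had 2 UMIs, 0.572 CPM (0.0693 to 2.07). In the HFD library cluster c8.1, with 1172 cells led by Cxcl14, Mgp and Lum, was at 420 CPM (394 to 446.5). Cluster c13.0, led by Mdk and Cxcl14, followed at 325 CPM (297 to 354), then c8.0 at 235 CPM (213 to 258.5) and the interstitial cluster c22.0 at 140 CPM (114.5 to 170). Cluster c22.0 was the lowest of these HFD clusters, but not of all. HFD clusters c22.1, with 55 cells at 19.2 CPM (7.04 to 41.7), and c16.1, with 34 cells at 47.9 CPM (15.6 to 112), lay lower. Neither was called interstitial. The 56 HFD cells of c14.0, which were called interstitial, were also lower, at 26.9 CPM (11.6 to 52.9). Macrophage markers stood at 4.12% of their library level in them. All HFD interstitial cells were at 107.5 CPM (88.5 to 129.5), beside 103 CPM (37.7 to 224) in the 20 HFD cells of the F3 kind. Macrophage markers stood at 60.6% of their library level in c8.0, 13.03% in c8.1 and 4.91% in the HFD cells of c13.0. The 35 NCD cells of c13.0 had 0 UMIs, which allows up to 17.3 CPM by the exact interval, against 325 CPM in its 407 HFD cells. This pair shares a cluster, whereas c8.0 and c8.1 held 4 NCD cells between them. Clusters c14.0, c9.0, c10.0 and c10.1 also held cells of both diets, with lower HFD levels than c13.0. From NCD to HFD, Mmp3 went from 0.572 to 26.9 CPM in c14.0 and from 18.03 to 103 CPM in c9.0, the F3 kind. In c10.0 the intervals overlapped (4.89 to 12.4 and 6.37 to 90.2 CPM). In c10.1 it was at 38.9 CPM under NCD, while 27 HFD cells had 0 UMIs, which allows up to 39.2 CPM.

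Mmp19 encodes a secreted enzyme that acts on basement membrane proteins. It was the least divided member, with 69.5% of its UMIs in stromal cells in the NCD library (66.8 to 72.1) and 58.0% in the HFD library (54.7 to 61.2). Progenitors were at 53.3 and 72.7 CPM, 1.36-fold higher in the HFD library (1.22 to 1.52). Macrophages were at 20.6 CPM (17.7 to 23.8) and 47.0 CPM (42.0 to 52.3), 2.28-fold higher (1.90 to 2.75). NCD monocytes stood at 38.7 CPM (24.3 to 58.6). An unnamed group of 388 NCD cells, most of them in a cluster led by Lyz1, Ccl17, Ear2 and Retnla, was at 57.45 CPM (47.6 to 68.75) and did not differ from NCD progenitors beyond these intervals. In macrophages called lipid-associated by Gpnmb, Spp1, Trem2 and other markers, Mmp19 was at 48.0 CPM under NCD (13 UMIs) and 49.2 CPM under HFD, a ratio of 1.03 (0.591 to 1.95). In resident macrophages, marked by Lyve1, Cd163 and Folr2, it was at 15.5 and 27.1 CPM, 1.75-fold (0.901 to 3.11).

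**Figure D2:**
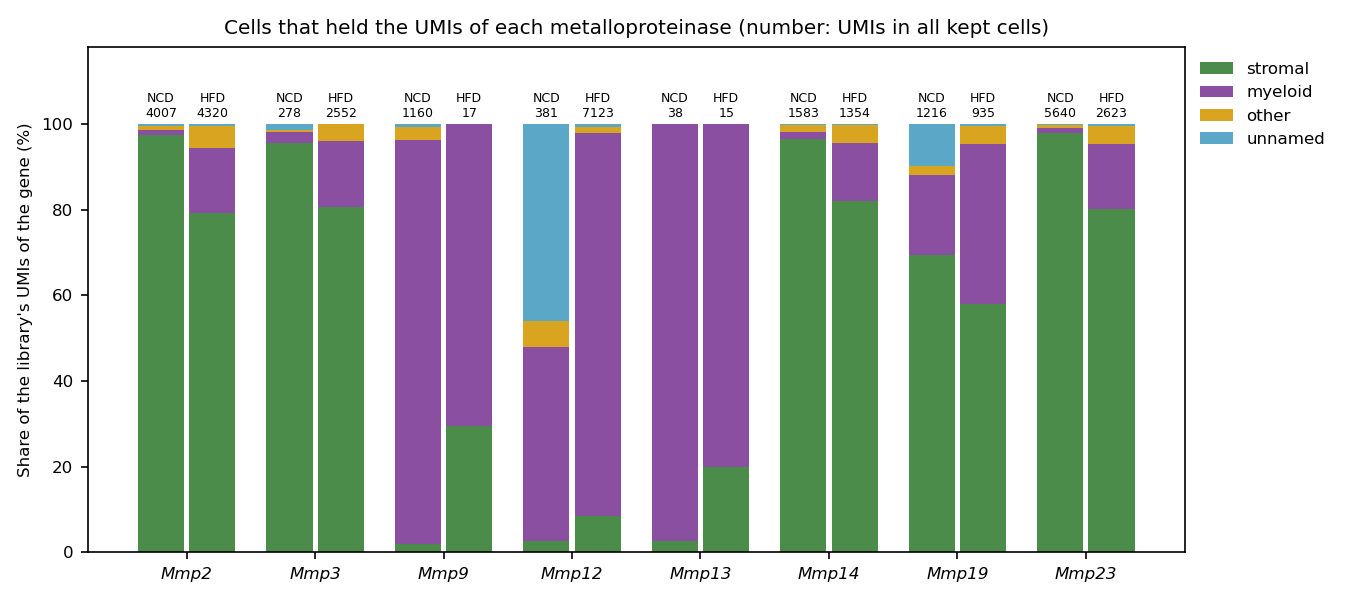
Share of the UMIs of each metalloproteinase (vertical axis, %) held by stromal, myeloid, other named and unnamed cells in each library, with the number of UMIs above each bar. Stromal cells hold over 95% of the NCD UMIs of Mmp2, Mmp3, Mmp14 and Mmp23 and about 80% of their HFD UMIs.

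Stromal members were also read in HFD macrophages, at levels that followed the stromal markers. In the HFD library macrophages held 15 stromal marker genes at a median of 15.6% of their progenitor level (13.4 to 24.6). Mmp2 was at 17.6% (16.0 to 19.2), Mmp23 at 16.8% (14.9 to 18.9), Mmp3 at 16.5% (14.6 to 18.6) and Mmp14 at 15.1% (12.7 to 17.9). These 4 values lay inside the range of the markers. In the NCD library the markers were at a median of 1.59% (0.967 to 6.56), and the same members were at 1.52%, 1.45%, 3.91% and 2.32%. Mmp19 lay far above the markers in both, at 38.6% (32.7 to 45.3) and 64.6% (56.1 to 74.3). In HFD T cells, where the markers were at a median of 24.9% of the progenitor level, Mmp2 was at 25.6% and Mmp3 at 16.5%.

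**Figure D3:**
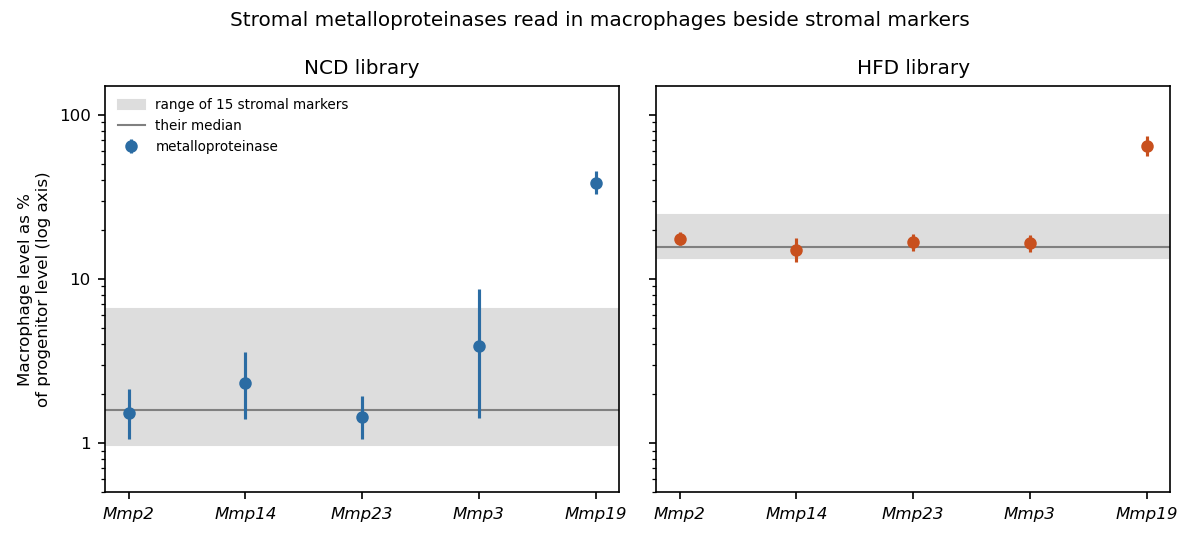
Level in macrophages as a percentage of the level in progenitors (vertical log axis) for 5 metalloproteinases with exact 95% intervals, beside the range (grey band) and median (line) of 15 stromal markers in the same library. Mmp2, Mmp14, Mmp23 and Mmp3 lie in the band in both libraries, and Mmp19 lies above it.

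These levels bear on the diet comparison within macrophages. Of the 7 members tested there, 6 were at least 2-fold higher in the HFD library and 1 was lower, against 9.77% and 10.1% of 7444 genes. The 6 include Mmp2, from 3.78 to 80.4 CPM, Mmp3, from 0.667 to 45.7 CPM, Mmp14, from 2.22 to 22.4 CPM, and Mmp23, from 5.004 to 46.5 CPM. With the library profile subtracted in the proportion the markers give, 3 remained, which were Mmp12, Mmp19 and Mmp2. Mmp2 was then at 11.9 CPM in HFD macrophages, Mmp3 at 4.43 CPM and Mmp23 at 3.97 CPM, and Mmp14 had none of its 156 UMIs left. Mmp19 kept 44.5 CPM and Mmp12 1100 CPM.

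Mmp12 encodes the macrophage metalloelastase, which degrades elastin. Its UMIs in the HFD library were myeloid for 89.4% (88.6 to 90.1), and macrophages alone held 87.5%. NCD macrophages held 165 UMIs (18.4 CPM, 15.65 to 21.4) and HFD macrophages 6231 UMIs (895 CPM, 873 to 917.5), a ratio of 48.8 (41.8 to 57.3). One NCD macrophage held 71 of the 165 UMIs, and without it the NCD level was 10.5 CPM (8.46 to 12.8) and the ratio 85.5 (69.8 to 106). That ratio leaves out the NCD cell only. One HFD macrophage held 939 of the 6231 UMIs, and without it the HFD level was 763 CPM (743 to 784). In HFD clusters where stromal markers stood at up to 25% of their library level, 1320 of the 2235 cells, Mmp12 was at 995 CPM. At 2000 UMIs per cell 0.9305% of NCD macrophages (0.561 to 1.45) and 29.45% of HFD macrophages (26.9 to 32.1) had a UMI, against 0.129% (0.0352 to 0.330) and 8.57% (7.19 to 10.1) of progenitors. In T cells the shares were 2.01% and 7.69%. The NCD T cells are no clean background for this gene, as all 16 of their Mmp12 UMIs lay in 3 cells of cluster c6.2, whose leading genes include Ccl17 and Lyz1 beside T cell genes. Unthinned shares were 1.40% and 32.5%, at median depths of 3748 and 2111 UMIs, and thinning left out 237 NCD and 999 HFD macrophages.

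The macrophages of the diets lay in largely different clusters. Resident macrophages were 83.8% of the NCD class, in clusters c3.0 and c2.0, and lipid-associated macrophages were 92.1% of the HFD class, mainly in c1.0, c17.1 and c17.0. Within the lipid-associated group the gap in Mmp12 was smaller than over the class, by an amount that 1 cell set. The 52 NCD cells were at 399 CPM (108 UMIs) and the 2058 HFD cells at 972 CPM, 2.44-fold higher (2.02 to 2.98). Without the NCD cell that held 71 of the 108 UMIs, the NCD level was 142 CPM (99.8 to 195) and the ratio 6.86 (4.97 to 9.75). That ratio keeps the HFD cell with 939 UMIs, without which the HFD level was 829 CPM (807 to 852). In cluster c17.1 the level was 1804 CPM (1751 to 1859) in 644 HFD cells and 1017 CPM (825 to 1241) in 17 NCD cells. Without the same HFD cell it was 1435 CPM (1387 to 1484), and without the same NCD cell 304 CPM (198 to 445). In c17.0 it was 85.0 CPM (70.3 to 102) in 369 HFD cells and 70.6 CPM (35.2 to 126) in 32 NCD cells. Cluster c1.0, with 852 HFD cells in which stromal markers stood at 69.7% of their library level, was at 689 CPM (652 to 727.5), and these markers stood at 12.3% in the HFD cells of c17.1. A cycling cluster of HFD lipid-associated cells, c16.3, led by Birc5 and Ube2c, was at 598 CPM (542 to 657). Resident cells were at 0.995 CPM in the NCD library (7 UMIs) and at 41.6 CPM in the HFD library (20 UMIs), 41.8-fold higher (17 to 117). HFD T cells were at 47.2 CPM, and the part of free RNA in the level of HFD resident cells was not tested.

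Few cells carried much of the Mmp12. The 10 HFD macrophages with the most held 32.8% of the UMIs of the class, and 9 of them lay in c17.1. One of these had 939 Mmp12 UMIs among 30293, where the median macrophage of that library had 2111 UMIs in all. In the NCD library 10 cells held 86.7% of the 165 UMIs. Of HFD macrophages with a UMI of Gpnmb, a marker of lipid-associated cells, 47.0% (42.5 to 51.5) had a Mmp12 UMI at equal depth, against 17.8% (15.1 to 20.7) of those without. Of those with a UMI of the resident marker Lyve1, 10.0% (4.12 to 19.5) had one, against 30.6% (27.98 to 33.4) of those without.

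Mmp12 also had a source outside the named classes in the NCD library. Unnamed cells held 45.9% of the 381 UMIs there (40.9 to 51.1), and myeloid cells 45.4%. All 175 of these UMIs lay in cluster c4.1, 249 cells led by Lyz1, Ccl17, Ear2 and Retnla, at 129 CPM (111 to 149.8). They came from 19 cells, of which 1 held 66, and without it the level was 80.7 CPM (66.3 to 97.4). Its macrophage-named neighbour c4.0, with 283 NCD cells, was at 33.6 CPM (24.97 to 44.3). Lyz1, Ccl17, Ear2, Retnla, Tnip3 and Ccl24 were among the leading genes of both clusters. The split of NCD Mmp12 between myeloid and unnamed cells therefore depends on the naming rule. The HFD library had 5 and 14 cells in these clusters. In HFD progenitors Mmp12 was at 81.5 CPM, 9.10% of the macrophage level (8.36 to 9.90), just under the range of 7 macrophage markers, whose median was 10.96% (10.3 to 12.9). In HFD T cells it was at 5.28% of the macrophage level, and these markers were at 22.7% (19.9 to 27.55). Subtraction of free RNA left 0 of the 605 progenitor UMIs.

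Mmp9 encodes the other gelatinase, which macrophages and neutrophils are known to release. In the NCD library myeloid cells held 94.4% of its UMIs (92.9 to 95.7) and macrophages 93.0%. NCD macrophages had 1079 UMIs (120 CPM, 113 to 127) and HFD macrophages 12 UMIs (1.72 CPM, 0.891 to 3.01), 69.6-fold lower (39.7 to 135). At 2000 UMIs per cell 19.3% of NCD macrophages (17.6 to 21.1) and 0.405% of HFD macrophages (0.132 to 0.942) had a UMI, against 0.671% and 0% of T cells. The value of 0 comes from 130 HFD T cells and allows a share of up to 2.31% by the limit of 3 counts and up to 2.80% by the exact interval. Mmp9 was spread over many NCD macrophages, and the 23 cells with the most held 10.4% of the UMIs.

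Mmp9 followed the resident macrophages of the NCD library. In the NCD library cluster c3.0, led by Cd209f and Lyve1, was at 155 CPM (143.5 to 167) in 1266 cells and cluster c2.0, led by Ccl12 and Mgl2, at 131 CPM (117 to 146) in 633 cells. Clusters c4.0 and c17.0 of the same library were lower, at 31.0 CPM (22.7 to 41.3) and 12.8 CPM (1.55 to 46.3). Of NCD macrophages with a Lyve1 UMI 23.6% (21.2 to 26.2) had a Mmp9 UMI, against 13.97% (11.8 to 16.4) of those without. The HFD library had 158 resident cells, with 8 UMIs and 16.7 CPM, 8.72-fold lower than the 145 CPM of the NCD resident cells (4.41 to 20.3). Of these HFD cells 63 lay in cluster c1.2, where stromal markers stood at 103% of their library level. Within cluster c3.0 the 21 HFD cells had 4 UMIs, 44.0 CPM (12.0 to 113). In cluster c12.2, 76 NCD endothelial cells led by Gpihbp1 and Rbp7, Mmp9 was at 53.4 CPM (34.2 to 79.4), and in the 229 cells of the endothelial cluster c12.0 at 1.40 CPM (0.0355 to 7.81). The 24 UMIs of c12.2 came from 11 cells. Its median depth was 5434 UMIs, against 2574 in the NCD cells of c12.0. Macrophage markers were not measured in endothelial cells, so a macrophage origin of these UMIs was not tested.

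Library sums of genes used as neutrophil markers were lower under HFD too. Of 6 such markers 5 had UMIs, and Ly6g had 0 in both libraries. S100a8 was at 28.7 and 10.1 CPM (NCD and HFD) and S100a9 at 22.4 and 5.36 CPM, but both also led the monocyte cluster c18.0. Cxcr2 was at 0.464 CPM (15 UMIs) and 0.395 CPM (7 UMIs). These sums cannot show whether neutrophils were fewer. The part of neutrophils in the Mmp9 difference was not tested, beside the 93.0% of NCD UMIs that lay in macrophages.

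**Figure D4:**
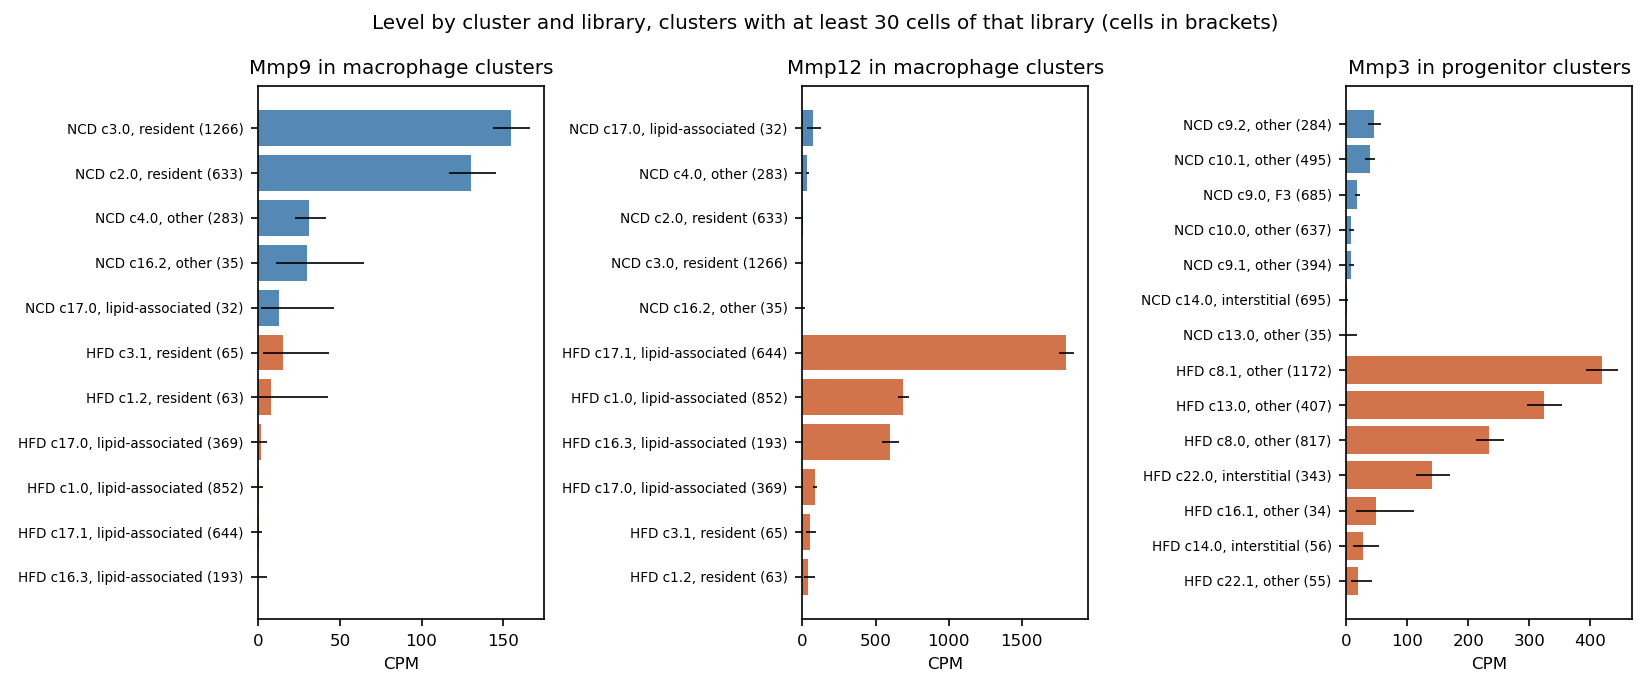
Level in CPM (horizontal axis) of Mmp9 and Mmp12 by macrophage cluster and of Mmp3 by progenitor cluster, for clusters with at least 30 cells of the library named (NCD blue, HFD orange, cells in brackets), with exact Poisson 95% intervals. Mmp9 is highest in the NCD resident clusters, Mmp12 in 3 HFD lipid-associated clusters and Mmp3 in HFD clusters c8.1, c13.0 and c8.0.

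Mmp13 encodes the main collagenase of mice. It was myeloid in the NCD library, where 36 of its 38 UMIs lay in macrophages (4.003 CPM, 2.80 to 5.54). HFD macrophages had 12 UMIs (1.72 CPM, 0.891 to 3.01), 2.32-fold lower (1.18 to 4.90), and the level was too low for the 2-fold call. Mmp12 and Mmp13, neighbours on chromosome 9 with the motifs shown above, had most of their HFD UMIs in myeloid cells. NCD Mmp13 was myeloid too. NCD Mmp12 was split between myeloid cells and the unnamed cells of c4.1, which shared leading genes with the macrophage-named c4.0. Mmp3, of the same run, had most of its UMIs in progenitors.

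Within progenitors 2 of the 6 members tested were at least 2-fold higher in the HFD library and 0 were lower, against 5.12% and 4.37% of 8083 genes. The 2 were Mmp3 and Mmp12. After subtraction of free RNA 2 members again passed, but these were Mmp3 and Mmp2, which was then at 253 and 522 CPM. Clusters whose macrophage markers stood at up to 25% of their library level held 2113 of 2964 HFD progenitors. In these Mmp3 was at 294 CPM, against 16.7 CPM in the NCD progenitors chosen the same way. Mmp12 was still at 38.55 CPM in those HFD progenitors.

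The inhibitors and activators of these enzymes were read from lists of related genes. For the counts of each list below, 5.12% of all genes tested in progenitors were higher and 4.37% lower. In macrophages 9.77% of all genes tested were higher and 10.1% lower. Of 8 inhibitor genes 5 were tested in progenitors, with 1 at least 2-fold higher and 1 lower. Timp1, which inhibits most metalloproteinases, stood at 83.6 CPM in progenitors under NCD and 728 CPM under HFD, 8.72-fold higher (8.20 to 9.27). Timp3, an inhibitor bound to the matrix, was at 448 and 124 CPM, 3.63-fold lower. Timp2, which takes part in the activation of the Mmp2 proenzyme by Mmp14, was at 2055 and 1576 CPM. Of HFD progenitors with a Timp1 UMI 24.3% (21.3 to 27.4) held a Mmp3 UMI, and 20.3% (17.4 to 23.5) of those without. The median log2 ratio of the 5 inhibitors was −0.38, and that of all genes tested in progenitors was −0.21.

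Among proenzyme activators and the plasminogen system, 1 of 11 genes tested in progenitors was higher and 1 lower. Plau, the urokinase gene, was at 37.1 and 128 CPM, 3.44-fold higher (3.10 to 3.82), and the proprotein convertase gene Pcsk6 at 138 and 47.9 CPM, 2.88-fold lower. Furin, whose product activates Mmp14 by cutting off its propeptide, was at 29.5 and 54.9 CPM. In macrophages 7 of 10 were higher and 1 lower, including Plau at 4.89 and 90.9 CPM and Htra3, a secreted serine protease gene, at 17.9 and 137 CPM. Stromal markers stood at 29.6% of their library level in those HFD macrophages, and the part of free RNA in these levels was not tested.

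Of 18 ADAM and ADAMTS protease genes, 15 were tested in progenitors, with 1 higher and 3 lower. Adamts5, an aggrecanase, was at 523 and 249 CPM, 2.10-fold lower. In macrophages 4 of 10 were higher and 3 lower, with Adam8, a leukocyte sheddase, at 15.5 and 138 CPM, 8.92-fold higher, and Adam15 at 192 and 88.1 CPM, 2.18-fold lower. Of the 15 Mmp genes that are not members only Mmp11 reached 10 CPM in progenitors, at 32.1 and 75.5 CPM, 2.36-fold higher (2.08 to 2.66).

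Among substrates and docking proteins 2 of 16 genes tested in progenitors were higher and 0 lower, which were Col1a1, at 798 and 1902 CPM, and Spp1, at 0.257 and 61.0 CPM. Macrophage markers stood at 22.8% of their library level in HFD progenitors, and their part in the Spp1 level was not tested. In macrophages 11 of 15 were higher, among them Spp1 (osteopontin) at 3.34 and 291 CPM and the collagen genes Col1a1, Col3a1 and Col1a2, of which all 3 are also stromal markers used to measure free RNA. Of 23 regulator genes, 2 of 17 tested in progenitors were higher and 1 lower, and 2 of 18 in macrophages were higher and 1 lower. The AP-1 gene Jun was at 1429 and 1850 CPM in progenitors, 1.29-fold higher, and at 1037 and 597 CPM in macrophages, 1.74-fold lower. Jund and Fosb were 1.72-fold and 1.62-fold lower in macrophages.

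The genes whose levels ran most like each member were ranked by Pearson's r of log2(CPM + 10) over 18 points, each 1 class with at least 50 cells in 1 library. The points share libraries, depth and free RNA, so r is a description. Htra3 (r = 0.984) was most like Mmp2, Bmp1 (0.964) most like Mmp14, Nbl1 (0.991) most like Mmp23 and Fbln7 (0.971) most like Mmp3. Plau followed for Mmp3 at 0.929. Rnase2a (0.984) and Pla2g2d (0.949) were most like Mmp9, and Atp6v0d2 (0.964), Slc37a2 (0.890) and Ctsd (0.882) most like Mmp12. No gene came as close to Mmp19, for which Mkks had the highest r at 0.796.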

How the data were processed

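UMI counts per gene and cell were deposited by the authors as raw counts for 1 NCD and 1 HFD library, and were used as deposited. The tools named by the submitters' processing notes are Seurat and Cell Ranger, with build mm10, and their versions are not given in the sources used here. The members, gene lists and markers were chosen with earlier results of these data known.

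The filter asked for 500 genes, 1000 UMIs and no more than 20% mitochondrial UMIs per cell. Scrublet (scanpy 1.11.5, expected rate 5%) called 196 NCD doublets. Its own threshold called 0 HFD barcodes, so the 5% with the highest scores, 342, were called. Both libraries were clustered together without integration on 2000 variable genes, 30 components and 15 neighbours (Leiden, resolution 1, 23 clusters), and large clusters were split again at 0.3 (52 clusters). Clusters were named by the class with the best mean log2 marker fold against the 23 first clusters, if 3 or more of its markers reached 1.5-fold. They stayed unnamed where the 10 leading genes held more markers of a different class. This rule was settled with a first clustering in view, when erythroid markers were also dropped from it.

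Counts were summed per class and library and given as CPM. Genes with at least 10 CPM in either group were compared, and 2-fold was the call. For ratios, 0 UMIs were replaced by 3. Sums have exact Poisson, shares exact Clopper-Pearson and ratios exact conditional binomial intervals, checked on simulated counts. Free RNA was followed by 15 stromal and 7 macrophage markers, each class level given relative to the library. Named were all members, up to 5 genes per list by size of the ratio among those at 50 CPM or more, and the 3 genes most like each member. Neutrophil markers and single clusters were named after their values were seen. The 13 alternatives covered filters, doublets, classes, clustering genes, free RNA, scaling, depth and threshold, and 1 cell left out, which was chosen after seeing the data. The tools were Python 3.11.15, numpy 2.4.6, pandas 2.3.3 and scipy 1.17.1.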

Additional observations from a re-analysis of the deposited data

How the results depend on the processing

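The limits of these data are 1 library per diet, an HFD library with shallower cells (median 2020 against 4230 UMIs) and more free RNA, and macrophages and progenitors of the diets that lie in largely different clusters. Of the counts of members over all alternatives, 115 were the same or within 1.5 times and 5 moved. With free RNA subtracted, the members at least 2-fold higher in HFD macrophages went from 6 to 3, since Mmp3, Mmp14 and Mmp23 fell under 10 CPM in both libraries. With cells thinned to 2000 UMIs the members higher in NCD myeloid cells went from 2 to 1, since Mmp12, at a log2 ratio of −3.92, was then under 10 CPM. The same count was 1 without the NCD macrophage with the most Mmp12 UMIs, an alternative chosen after seeing the data, with Mmp12 at −3.89 and under 10 CPM. At 1.5-fold in place of 2-fold, the members higher in the HFD library and in HFD progenitors went from 2 to 4 each. Of single ratios, 286 stayed within their intervals and 102 moved, and 1 called ratio changed sign: Mmp14 in macrophages went from a log2 ratio of 3.33 to −0.14 with free RNA subtracted, where 0 HFD UMIs were left and the value is a bound set by the floor of 3. Mmp9 in progenitors, under 10 CPM in both libraries and not called, also changed sign there, from −1.07 to 1.04, with 4.32 NCD and 3.37 HFD UMIs left. Over the alternatives the log2 ratio ranged from 4.27 to 6.42 for Mmp12 in macrophages, from −6.34 to −5.30 for Mmp9 in macrophages and from 3.94 to 4.23 for Mmp3 in progenitors. For Mmp12 in progenitors it ranged from 0.91 to 7.46, where 0.91 is set by the floor, as 0 of the 605 HFD UMIs were left after subtraction, and is no sign of a higher HFD level. Centring on the median gene, which lay at −0.20 over the library, −0.06 in macrophages and −0.21 in progenitors, put Mmp2 past 2-fold in the library and in progenitors. No paired analysis was possible because each diet has 1 library.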
